A study of Sus scrofa with 30 samples.

Results

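Pig teat epithelium was compared between animals with a high and with a low level of CSN2, the gene of the milk protein beta-casein. The states were chosen from the measured values themselves. Of 30 arrays in all, the 15 epithelial arrays were cut at a log2 value of 10 for CSN2, which is measured by 1 probe set. A total of 6 arrays from 4 animals lay above the cut (CSN2-high) and 9 arrays from 6 animals below it (CSN2-low). Both teats of an animal always fell on the same side, and the arrays of an animal were averaged to 1 replicate. Every epithelial difference between the states is therefore a description, since the arrays that show it are those on which the animals were sorted.

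The study profiled epithelial and mesenchymal teat tissue of 10 peripubertal pigs of commercial dam lines, slaughtered at a mean weight of 110 kg, on Affymetrix Porcine Genome arrays. Affected animals carried inverted teats and non-affected animals had none. The CSN2-high animals were 957 (German Landrace) and 950 (Large White x German Landrace), both non-affected, and 963 (German Landrace) and 964 (Large White x German Landrace), both affected. The CSN2-low animals were 1040 and 1058 (Large White x German Landrace) with 1109, a Pietrain x (Large White x German Landrace) cross, all 3 non-affected, and 1037 and 1059 (Large White x German Landrace) with 1103, a cross like 1109, all 3 affected. Each animal gave a normal teat, and the affected ones an inverted teat besides. Treatment, oestrous stage and pregnancy are not given in the labels used here. The tissue pieces are bulk samples, in which fewer cells of a type and less RNA per cell cannot be told apart. EPCAM, an adhesion protein of epithelia used to check the epithelial label, was at 8.62 to 10.55 on 14 epithelial arrays, and at 4.69 in the inverted teat of 1103, which stands apart. Mesenchymal arrays of CSN2-high animals also held EPCAM, at 10.24 to 11.02.

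Caseins are the main proteins of milk and form micelles that carry calcium and phosphate. Their genes, CSN1S1, CSN2, CSN1S2 and CSN3, lie together in one cluster in mammals and are switched on in secretory mammary epithelium by prolactin acting through STAT5 together with glucocorticoids. The other main milk proteins of the pig are made in the same cells: beta-lactoglobulin (measured here under the symbol PAEP), alpha-lactalbumin (LALBA), which is needed for lactose synthesis, and whey acidic protein (WAP). The teat itself holds ducts that are continuous with those of the gland.

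CSN2 split the animals with a wide gap. Its log2 value was 13.90 in animal 950 and 14.94 in 957, 15.06 in the normal and 14.80 in the inverted teat of 963, and 13.16 and 15.33 in those of 964. On the 9 CSN2-low arrays it ran between 4.40 and 5.82, with a median of 4.90. The values nearest the cut were 13.16 (normal teat of 964) and 5.82 (inverted teat of 1103). Over animals the level was 14.50 ± 0.52 (SD, n = 4) in the CSN2-high state and 4.99 ± 0.40 (SD, n = 6) in the CSN2-low state, a difference of 9.52 ± 0.26 (SE). CSN2 was among the most strongly measured probe sets of each CSN2-high array, and on 4 of the 9 CSN2-low arrays it lay under the array's 30th percentile, which served as the bound for a low value.

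The other caseins did not follow CSN2 evenly. CSN1S1, alpha-S1-casein, had 8.54 in 950, 10.85 in 957, 9.92 and 9.71 in the normal and inverted teat of 963 and 9.68 and 11.41 in those of 964, against 0 to 5.88 (median 3.33) on the CSN2-low arrays. No CSN2-low array reached a CSN2-high one, and the animal means were 9.94 ± 1.03 (SD, n = 4) and 3.50 ± 1.78 (SD, n = 6), a difference of 6.44 ± 0.82 (SE). CSN3, kappa-casein, which caps the surface of the micelle, had 6.85 to 9.88 (median 8.27) on the CSN2-high arrays and 0 to 4.62 (median 0.55) on the CSN2-low arrays. Its animal means of 8.23 ± 1.0 (SD, n = 4) and 1.69 ± 2.19 (SD, n = 6) differed by 6.55 ± 0.98 (SE). CSN3 was listed at 0 on 4 CSN2-low arrays, and with all values under the 30th percentile raised to it the difference was 3.55, so its size depends on values near the bottom of the scale.

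CSN1S2, alpha-S2-casein, differed least of the caseins and its arrays overlapped. It had 6.12 in 950, 3.93 in 957, 5.56 and 5.84 in the normal and inverted teat of 963 and 4.64 and 5.99 in those of 964, against 3.44 to 4.39 on the CSN2-low arrays. Animal 957, with one of the highest CSN2 and the highest CSN1S1 among normal teats, thus lay within the CSN2-low range for CSN1S2. The difference of animal means was 1.28 ± 0.34 (SE), or 0.78 with low values raised to the 30th percentile, under which all 9 CSN2-low arrays lay.

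Among the whey proteins, PAEP separated the states, and LALBA and WAP differed little. PAEP had 9.94 in 950, 12.81 in 957, 12 and 11.52 in the normal and inverted teat of 963 and 12.01 and 12.73 in those of 964, against 2.98 to 8.43 (median 6.54) on the CSN2-low arrays. The CSN2-high arrays all lay above the others, with a difference of animal means of 5.52 ± 0.97 (SE). LALBA had 4.77 to 5.73 (median 5.14) on CSN2-high and 4.49 to 5.22 (median 4.84) on CSN2-low arrays. Its animal means of 5.20 ± 0.08 (SD, n = 4) and 4.82 ± 0.17 (SD, n = 6) did not overlap, while the arrays did, and the difference was 0.38 ± 0.12 (SE, 95% interval 0.12 to 0.64). WAP was 5.57 ± 0.20 (SD, n = 4) in CSN2-high and 5.47 ± 0.13 (SD, n = 6) in CSN2-low animals, a difference of 0.10 with an interval of -0.18 to 0.37. The wide CSN2 difference was thus not matched by a like difference in LALBA or WAP.

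**Figure D1:**
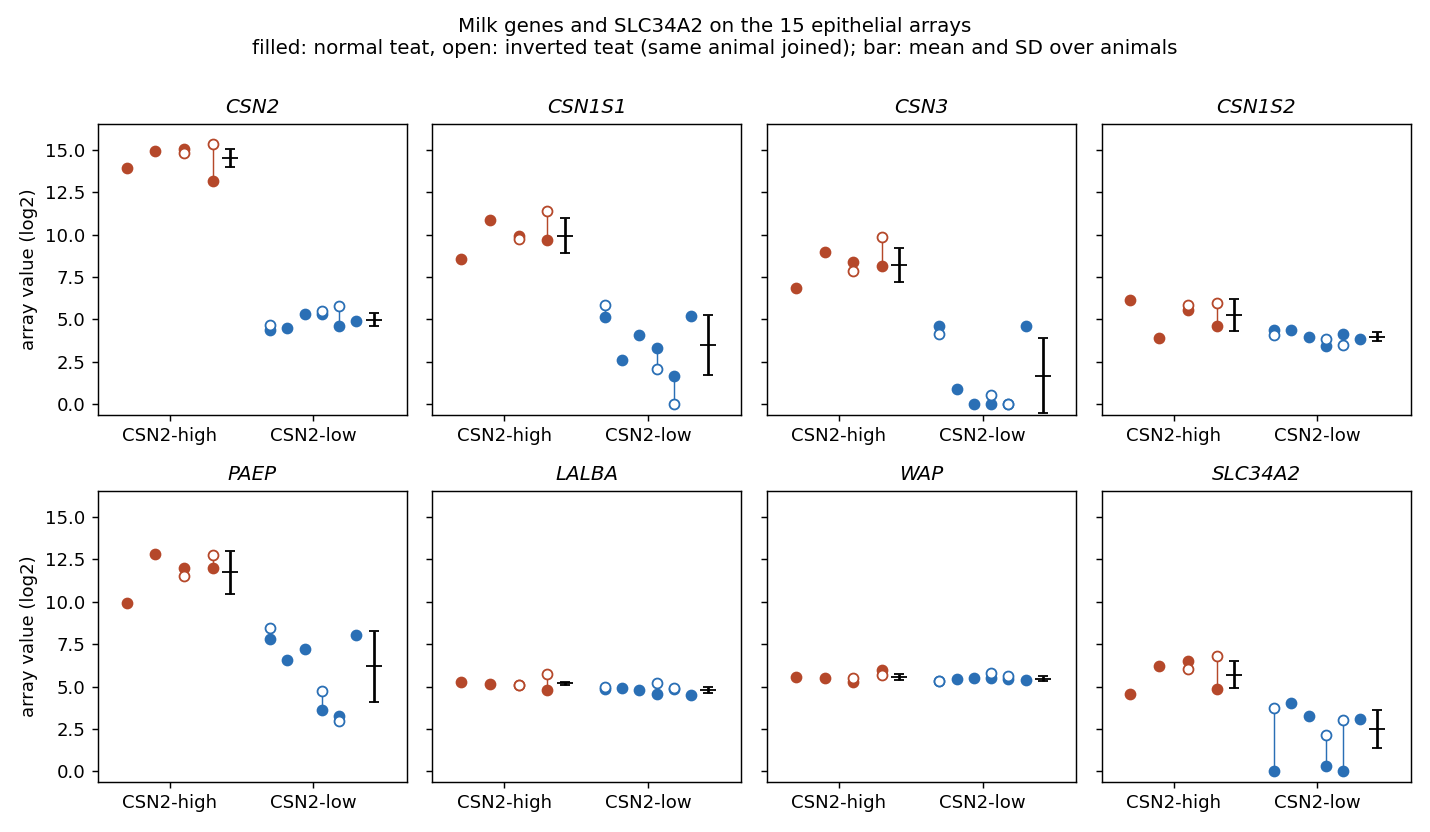
Log2 values of 7 milk protein genes and of the phosphate transporter SLC34A2 on the 15 epithelial arrays, with CSN2-high animals on the left and CSN2-low animals on the right of each panel; points are arrays (filled, normal teat; open, inverted teat of the same animal) and black bars are the mean and SD over 4 and 6 animals. CSN2, CSN1S1, CSN3, PAEP and SLC34A2 do not overlap between the states, whereas CSN1S2, LALBA and WAP do.

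Within the CSN2-low animals the other milk genes had an order of their own. Animal 1037 had a CSN1S1 of 5.16 in the normal and 5.88 in the inverted teat and 1109 had 5.20, whereas the other CSN2-low arrays ran from 0 to 4.09. The same animals had the highest CSN3 of the state, 4.62 and 4.12 in 1037 and 4.6 in 1109, with all others at 0.88 or lower, and the highest PAEP, 7.79 and 8.43 in 1037 and 8.04 in 1109. Their CSN2 was 4.40, 4.66 and 4.90, no higher than in the rest of the state. Animals 1059 and 1103 were at the other end, with PAEP between 2.98 and 4.74 on their 4 arrays. The 30th percentile of the CSN2-low arrays was 4.61 to 4.73. All these CSN3 values, and the lower ones of CSN1S1 and PAEP, lay near or under it. The order thus rests in part on values near the bottom of the scale.

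The remaining milk list, of proteins secreted into milk or carried on the fat globule, showed smaller differences. The whole list names 24 genes, of which 16 were measured and 14 passed the filter on low values. CSN2, which set the states, and the other caseins and whey proteins above are among the 14. CSN1S2 passed the filter only through CSN2-high arrays. In CSN2-high animals 12 of the 14 were higher and 2 lower, beside 2839 higher and 3250 lower of all 6089 gene symbols tested. The median difference was 0.62 beside -0.01. Since CSN2 set the states, nothing is read from these counts. LPO and ALB were measured but too low to test. LTF, lactoferrin, an iron-binding defence protein, had 9.10 ± 0.58 (SD, n = 4) in CSN2-high and 7.37 ± 1.88 (SD, n = 6) in CSN2-low animals. Its difference of 1.73 was 0.92 without the inverted teat array of 1103, on which LTF was 0.10, and 0.88 in normal teats alone. MUC1, a mucin of the apical membrane, had 6.14 ± 0.22 (SD, n = 4) in CSN2-high and 5.48 ± 0.35 (SD, n = 6) in CSN2-low animals, which did not overlap, while the arrays did. PLIN2, the coat of lipid droplets, differed by 0.58 ± 0.23 (SE; 0.37 without the 1103 array) and overlapped. MUC15 (0.16), TF, transferrin (0.35), and MFGE8, a fat globule protein (-0.15), differed by about their SE or less, and FABP3, a fatty acid carrier, by -0.71 ± 0.44 (SE). The TF value was -0.05 after adjustment for luminal keratins.

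By limma over all 17994 probe sets tested in epithelium, 2 were higher in CSN2-high animals at an adjusted p under 0.05 (0.0111% of those tested) and 0 were lower (0%). These were CSN2 and CSN1S1. Only CSN2 was counted when animal 950, 963, 964, 1040, 1058 or 1059 was left out, 2 without 957 (CSN2 and CSN1S2), 3 without 1037 and 4 without 1109. With the animal as a replicate block over all 15 arrays, the count was 4: CSN1S1, CSN2, CSN3 and PAEP. At an unadjusted p under 0.05 there were 985 probe sets, where a share of 0.05 of those tested is 900. All 4 CSN2-high animals lay above all 6 CSN2-low animals for 120 probe sets (0.667%) and below them for 78 (0.433%). Since the animals were sorted on these arrays, nothing is read from these shares.

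The casein genes stand close together in RefSeq's order of pig genes (Sscrofa11.1), which allowed a look at their neighbours, chosen after their values were seen. Of the 10 genes on either side, 8 were measured. The amelogenesis genes AMBN and ENAM and the immunoglobulin joining chain gene JCHAIN lie beyond CSN3, and the sulfotransferase gene SULT1E1 lies near CSN1S1. None of the 8 separated the animals, beside 35 symbols that did so higher and 26 lower of all 6089 tested. With so small a share over all symbols, nothing is read from this count. AMBN differed by 0.82 ± 0.57 (SE; 0.09 with low values raised), JCHAIN by 0.86 ± 0.57 (0.50 without animal 963) and LOC100515394 by -0.03 ± 0.19. SULT1E1 and ENAM were too low to test. UTP3, RUFY3 and GRSF1, farther out, differed by -0.08, -0.27 and -0.22.

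**Figure D2:**
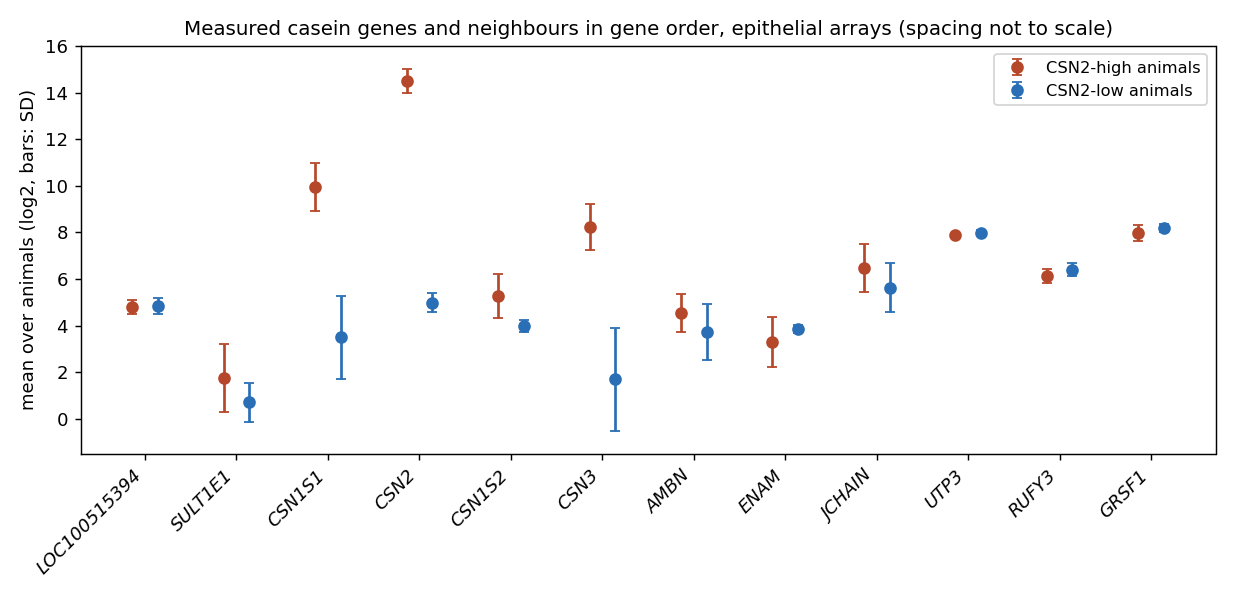
Log2 level in epithelium of the 4 caseins and their 8 measured neighbours, in gene order, as mean and SD over the 4 CSN2-high animals (left point of each pair) and the 6 CSN2-low animals (right point). CSN1S1, CSN2 and CSN3 are several log2 units higher in CSN2-high animals, CSN1S2 is 1.28 higher, and the neighbours lie close together.

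Genes of mineral, lactose and nutrient transport differed little, with SLC34A2 as the exception. Of 33 listed genes 20 were tested, 14 were higher and 6 lower, with a median of 0.09. SLC34A2, a sodium-dependent phosphate transporter of epithelia that is expressed in mammary gland, had 4.56 in 950, 6.20 in 957, 6.50 and 6.03 in the normal and inverted teat of 963 and 4.87 and 6.78 in those of 964. The CSN2-low arrays had 0 to 4.05 (median 3.01), all under their array's 30th percentile. SLC34A2 thus passed the filter on low values only through CSN2-high arrays. The value of 950 was also under that percentile, which was 4.68 or more on the CSN2-high arrays. The difference of 3.22 ± 0.54 (SE) was 1.08 with low values raised. SLC38A1, an amino acid transporter, differed by 0.65 ± 0.19 (SE), the water channels AQP3 and AQP5 by 0.81 ± 0.32 and 0.76 ± 0.41. Without the inverted teat array of 1103 AQP3 differed by 0.57 and AQP5 by 0.24. B4GALT1, the enzyme that LALBA turns to lactose synthesis, differed by 0.26 ± 0.12 (SE).

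Milk fat genes leaned the other way. Of 31 tested genes of fat synthesis 24 had lower values in CSN2-high animals, with a median of -0.26. FASN, fatty acid synthase, differed by -0.55 ± 0.36 (SE), SCD, a desaturase, by -0.46 ± 0.35, and DGAT2, which makes triglyceride, by -0.92 ± 0.54. GPAM, the first enzyme of glycerolipid synthesis, differed by 0.89 ± 0.73. Adipocytes express the same genes, and the adipocyte list was lower for 14 of 16 tested genes (median -0.47), with the adipokine ADIPOQ at -0.87 ± 0.73 (SE) and the retinol carrier RBP4 at -1.47 ± 0.46. The mean of the adipocyte list ran between 6.61 and 8.40 on CSN2-high and between 7.09 and 8.82 on CSN2-low arrays. Its part in the milk fat values was not tested.

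The signalling genes upstream of casein transcription differed little at the RNA level. Of 28 tested genes of prolactin, growth hormone and steroid signalling 14 were higher and 14 lower, with a median of -0.01. STAT5A and STAT5B, the transcription factors that act on casein promoters, differed by 0.12 ± 0.17 and 0.11 ± 0.15 (SE), and the prolactin kinase JAK2 by 0.14 ± 0.17. PRLR, the prolactin receptor, was too low to test, with 3.50 to 4.51 on CSN2-high and 2.73 to 4.72 on CSN2-low arrays. NR3C1, the glucocorticoid receptor, differed by -0.33 ± 0.15 (SE) and ESR1, the oestrogen receptor, by -0.10 ± 0.32. AREG, amphiregulin, an oestrogen-induced growth factor of mammary ducts, had the widest difference of the list at 2.0 ± 0.83 (SE), with 5.83 to 7.67 on CSN2-high and 0 to 6.57 on CSN2-low arrays, and 1.24 with low values raised. PTHLH, parathyroid hormone-related protein, differed by 0.59 ± 0.34 (SE).

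Genes of the protein secretion machinery leaned upward by small amounts. In epithelium 34 of 49 tested genes of the secretory pathway and unfolded protein response had higher values in CSN2-high animals, with a median of 0.09 and a highest difference of 0.40 ± 0.15 (SE) for XBP1, a transcription factor of secretory cells. PDIA4, a disulfide isomerase, differed by 0.34 ± 0.15 and HSPA5, the main chaperone of the endoplasmic reticulum, by 0.25 ± 0.14 (SE). Of the secreted defence proteins 18 of 21 were higher (median 0.15), and 16 without the inverted teat array of 1103. PIGR, the receptor that carries immunoglobulin A into milk, differed by 1.40 ± 0.47 (SE) and the protease inhibitor SLPI by 1.33 ± 0.40. Without that array PIGR differed by 1.03 and SLPI by 1.06, and with low values raised PIGR differed by 1.09. Genes of the cell cycle (28 tested, median -0.03), of the ribosome (58, median 0.00) and of the respiratory chain (57, median -0.06) were level.

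Markers of other cell types moved with the state in part. Luminal epithelial genes were higher for 18 of 19 tested (median 0.58), with EPCAM at 1.11 ± 0.47, CDH1, E-cadherin, at 1.15 ± 0.46 and FOXA1 at 1.07 ± 0.43 (SE). Without the inverted teat array of 1103 these were 0.67, 0.73 and 0.57, and the list median was 0.34. The mean of the luminal keratins KRT8, KRT18 and KRT19 ran between 9.67 and 10.7 on CSN2-high arrays and between 6.75 and 10.5 on CSN2-low arrays, and the states did not differ in it beyond the spread (two-sided exact permutation test over 10 animals, p = 0.224, smallest possible 0.00476). The lowest value belongs to the inverted teat array of 1103, and the next lowest CSN2-low array had 9.27. Adjusted for the keratin mean, the differences were 5.61 for CSN1S1, 5.59 for CSN3, 4.51 for PAEP and 2.75 for SLC34A2, and CSN2 was the only gene still counted at an adjusted p under 0.05.

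Skeletal muscle genes had the highest median of all lists tested with at least 5 genes, 1.34 over 25 genes, 21 of them higher. The list mean ran between 3.44 and 8.35 on CSN2-high and between 3.28 and 7.52 on CSN2-low arrays, so the states overlapped over nearly the whole range. MYLPF, a fast muscle myosin light chain, had a difference of 3.11 ± 2.26 (SE; 1.88 with low values raised). It was 11.68 and 11.47 in the teats of 963 but 0 in the normal teat of 964 and 1.84 in 957. Whether muscle transcript moves with CSN2 was not tested. Endothelial genes were lower for all 19 tested (median -0.24), interferon response genes for 16 of 20 (median -0.28) and smooth muscle genes for 18 of 25 (median -0.22). Leukocyte genes (25, median -0.04) and fibroblast and matrix genes (30, median -0.12) showed little. Of the leukocyte markers, PTPRC and CD3E differed by -0.24 and -0.04. The basal and myoepithelial (8, median -0.20), epidermal (11, median 0.12), antigen presentation (19, median 0.02), involution (25, median -0.05), heat shock and immediate early (39, median -0.11) and ductal transport lists (7, median 0.13) were each within 0.2 of 0. The sweat and sebaceous list rests on 2 tested genes.

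**Figure D3:**
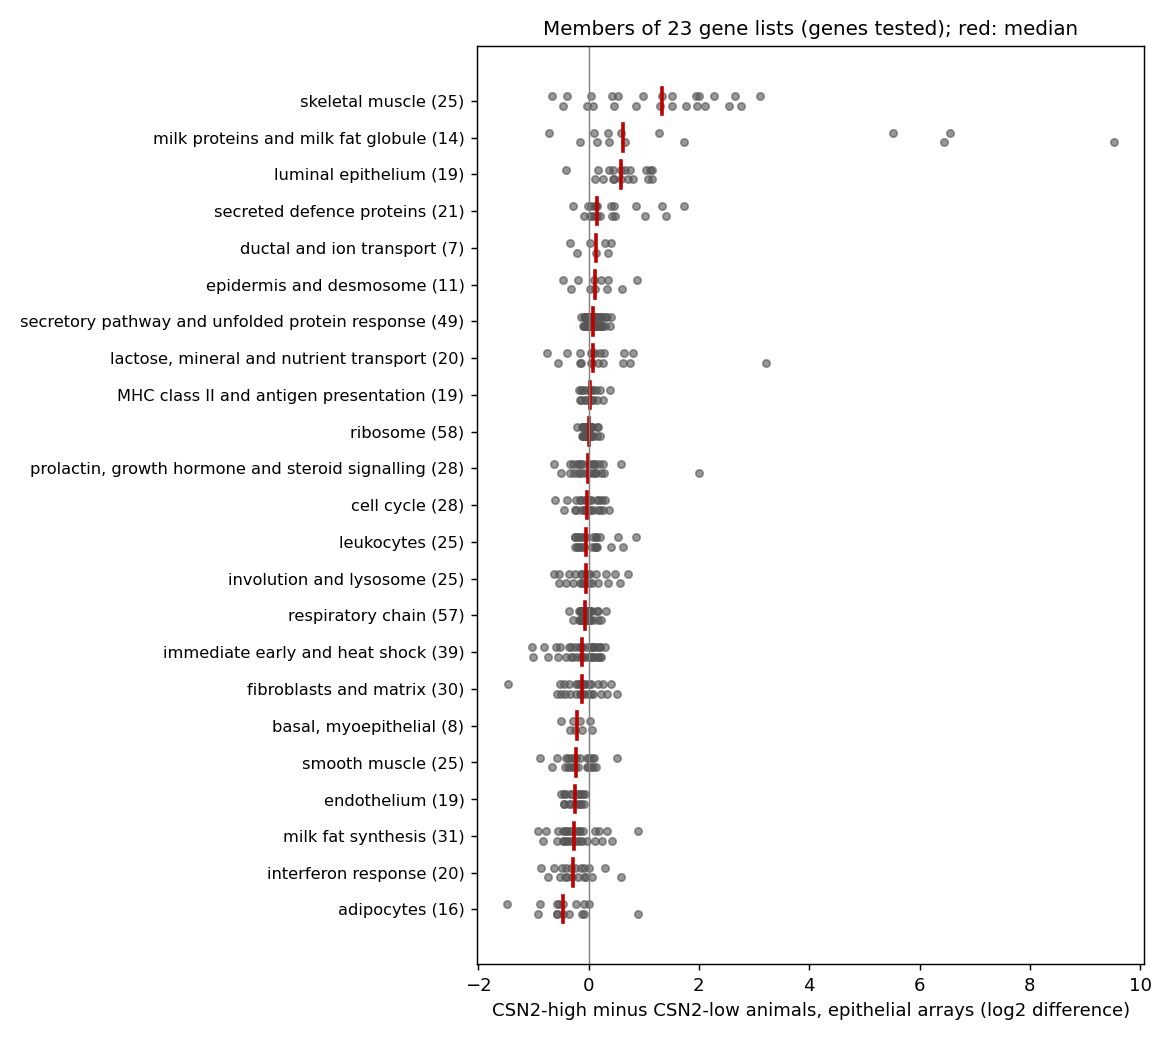
Log2 differences in epithelium, CSN2-high minus CSN2-low animals, for the tested members of 23 gene lists (points) with each list's median (red line); the number of tested genes stands in brackets. A few milk genes lie between 5 and 10, SLC34A2 stands alone in its list, and most other lists are centred within 0.5 of 0, with skeletal muscle wide and shifted to 1.34.

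Beyond the milk list, the genes with the smallest p in epithelium differed modestly. On the higher side, after CSN1S1, CSN3, SLC34A2 and PAEP, these included CD93, a receptor of endothelial and myeloid cells (1.44 ± 0.31, SE), SKAP2, an adaptor of Src-family kinases (0.61 ± 0.13), RNF128, a ubiquitin ligase (1.37 ± 0.31), LOC396566 (0.94 ± 0.21) and PDXK, pyridoxal kinase (0.81 ± 0.20). SKAP2 had 7.11 to 7.38 on CSN2-high and 6.15 to 7.0 on CSN2-low arrays with no overlap. Its further probe sets gave smaller differences of 0.37 and 0.43, for which the animals overlapped. A further CD93 probe set gave -0.22, so its probe sets disagree.

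On the lower side the 10 genes were LYPD6, PHLDA3, PHF12, MACF1, OAF, KDR, CPN1, HOXB7, LOC100512977 and GYS1, with differences between -0.93 and -0.44. PHLDA3, a p53 target that dampens AKT signalling, had 7.92 to 8.49 on CSN2-high and 8.73 to 9.42 on CSN2-low arrays, a difference of -0.75 ± 0.14 (SE) with no overlap. MACF1, a cytoskeletal linker, had 6.17 to 6.73 against 6.75 to 7.35 and OAF 7.47 to 7.99 against 8.04 to 8.99 on CSN2-high and CSN2-low arrays. HOXB7, a homeobox factor, differed by -0.68 ± 0.18 (SE), and its second probe set by -0.75. LYPD6, KDR and CPN1 lay under the 30th percentile on all 6 CSN2-high arrays. With low values raised, LYPD6 differed by -0.23, PHF12 by -0.29 and CPN1 by -0.10, and KDR gave 0.04 with its probe sets averaged. LOC100512977 differed by -0.50 within the Large White x German Landrace animals, against -0.93 over all.

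The mesenchymal arrays were not used to sort the animals and allow a test of the same contrast, though in the same 10 animals. CSN2 was higher in mesenchyme of CSN2-high animals in 4 of 4: 15.47 in 950, 13.83 in 957, 14.76 and 12.94 in the teats of 963 and 16.14 and 16.17 in those of 964, against 4.0 to 6.39 on the CSN2-low arrays. The difference was 9.43 ± 0.50 (SE; limma, adjusted p = 8.138e-06). CSN1S1 rose by 7.65 ± 0.82 (SE; limma, adjusted p = 0.00129), CSN3 by 6.82 ± 0.80 (adjusted p = 0.00174) and PAEP by 6.46 ± 0.58 (adjusted p = 0.00075), each in 4 of 4 animals. These 4 calls held without any single animal.

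CSN1S2 had 9.53 in 950, 4.50 in 957, 6.52 and 4.54 in the normal and inverted teat of 963 and 8.64 and 8.62 in those of 964 in mesenchyme, against 3.53 to 4.71 on the CSN2-low arrays. With a difference of 2.75 ± 0.82 (SE) it missed the threshold (limma, adjusted p = 0.0595), which it passed without 957 (3.60, adjusted p = 0.0198), with the animal as a replicate block (adjusted p = 0.0171) and in normal teats alone (adjusted p = 0.0452), and it was 4.94 within the Large White x German Landrace animals. WAP had 8.48 in 950 and 8.11 and 8.34 in the teats of 964, but 5.75 in 957 and 5.66 and 5.80 in 963, against 5.20 to 6.27 on the CSN2-low arrays. The difference of WAP in mesenchymal tissue was 1.39 ± 0.52 (SE; limma, adjusted p = 0.12). It was 0.91 without 950, and 1.82 without 957 (adjusted p = 0.0495). Animals 950 and 964, both Large White x German Landrace, thus had high WAP and the highest CSN1S2 in mesenchyme, whereas the German Landrace animals 957 and 963 had lower values. Within the Large White x German Landrace animals, 2 against 4, WAP differed by 2.54. That subset keeps 950 and 964 and leaves out 957 and 963, whose values were already seen, so nothing is read from its size. Breed and single animals cannot be told apart here. LALBA differed by 0.24 ± 0.26 (SE, 95% interval -0.33 to 0.80), with 6.21 and 6.27 in 964 and 5.03 to 5.48 on the other CSN2-high arrays, against 4.80 to 5.84 on CSN2-low arrays; without 964 it was -0.01.

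**Figure D4:**
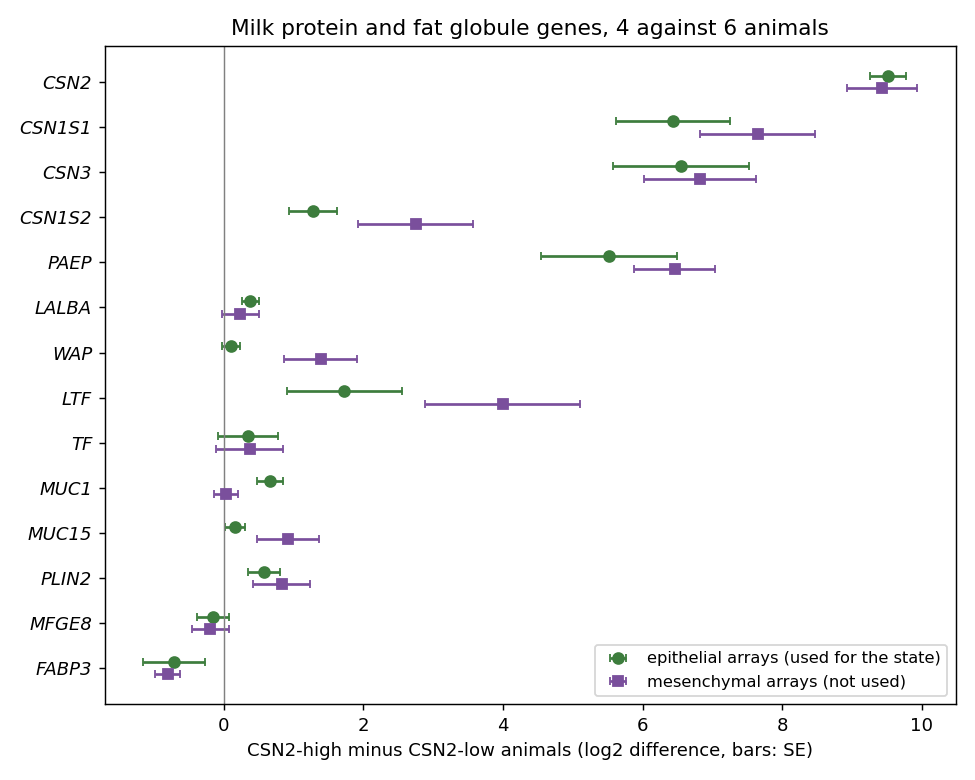
Log2 differences, CSN2-high minus CSN2-low animals (4 against 6), of the 14 tested milk protein and fat globule genes in epithelium (circles), whose CSN2 set the states, and in mesenchyme (squares), with SE. CSN2, CSN1S1, CSN3 and PAEP lie between 5.52 and 9.52 in both tissues, while LALBA, MUC1, TF and MFGE8 stay below 0.7.

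Other milk genes gave mixed results in mesenchyme. Of the 14 tested members 5 passed higher and 1 lower, beside 330 and 85 of 6161 symbols. LTF rose by 4.0 ± 1.11 (SE; limma, adjusted p = 0.0483), a call that ended when any animal but 1040 was left out, and the value was 2.44 with low values raised. FABP3, which muscle also expresses, fell by 0.80 on the log2 scale (limma, adjusted p = 0.0232; no longer passing without 963, 964, 1037 or 1103). SLC34A2 in mesenchymal tissue rose by 4.04 ± 0.89 (SE; limma, adjusted p = 0.0229; 1.61 with low values raised), and missed the threshold without 950 (adjusted p = 0.0506), 964 (0.0908) or 1037 (0.0506). SLC38A1 rose by 1.63 ± 0.21 (SE; limma, adjusted p = 0.00277). MUC1 (0.03), TF (0.37), MUC15 (0.92), PLIN2 (0.83) and MFGE8 (-0.19) did not pass.

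The mesenchymal pieces of CSN2-high animals also held far more luminal epithelial transcript. The mean of KRT8, KRT18 and KRT19 ran between 9.15 and 11.1 on their arrays, as in epithelium, and between 2.38 and 9.65 on those of CSN2-low animals, and the states differed (two-sided exact permutation test over 10 animals, p = 0.00476, the smallest possible). Of 19 tested luminal genes 14 passed higher (median 2.65), beside 330 of all 6161 symbols tested (median 0.03). EPCAM differed by 5.59 ± 1.09, CDH1 by 4.82 ± 0.82 and KRT19 by 5.02 ± 1.19 (SE, limma, adjusted p = 0.0146, 0.00812 and 0.0295). The EPCAM call ended without 964, and that of KRT19 without 950, 963, 964, 1037 or 1103. The desmosomal genes DSP and PERP, AREG (5.10 ± 0.91), PTHLH (2.10 ± 0.33) and AQP5 (2.96 ± 0.76) rose with the luminal genes. Of 23 secreted defence genes 9 passed higher, beside the same 330 of 6161 symbols. With low values raised AREG differed by 2.23 and AQP5 by 1.56, and both still passed. The AREG call ended without 964 and the AQP5 call without 950, 957, 963, 964, 1037, 1103 or 1109. AREG had mesenchymal means of 0 to 3.26 in CSN2-low animals. It would not have met the filter on low values without CSN2-high arrays, so nothing is read from its call. Calls that held without any single animal included PGLYRP1, a secreted peptidoglycan-binding protein (4.95 ± 0.79), the matrix protease MMP7 (5.28 ± 0.67), the chaperone CLU, clusterin (2.43 ± 0.40), the protease inhibitor A2M (2.13 ± 0.33) and FXYD3, a regulator of the sodium pump (3.01 ± 0.36, SE). ACSL3, which activates fatty acids, rose by 1.36 ± 0.26 and RBP4 fell by 1.81 on the log2 scale, and both calls ended without 964. Adjusted for the keratin mean, CSN1S1 differed by 7.58, CSN3 by 7.02, PAEP by 5.51, SLC34A2 by 1.63 and LTF by -1.48, none of which passed. CSN2 in mesenchymal tissue was then the only call (10.13; limma, adjusted p = 0.00803).

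On 2 mesenchymal CSN2-low arrays luminal transcript was high while CSN2 was low. The mesenchymal inverted teat of 1059 had a keratin mean of 9.65, within the 9.15 to 11.14 of the mesenchymal CSN2-high arrays. Its EPCAM of 9.64 was under their 10.24 to 11.02. The mesenchymal inverted teat of 1103 had a keratin mean of 8.76 and an EPCAM of 8.69, under both ranges. Both arrays lay above the other mesenchymal CSN2-low arrays in both measures. The CSN2 of these 2 arrays was 5.95 and 5.41, within the CSN2-low range. The same holds in epithelium, where 8 of the 9 CSN2-low arrays had a keratin mean of 9.27 or more with CSN2 at 5.52 or less.

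**Figure D5:**
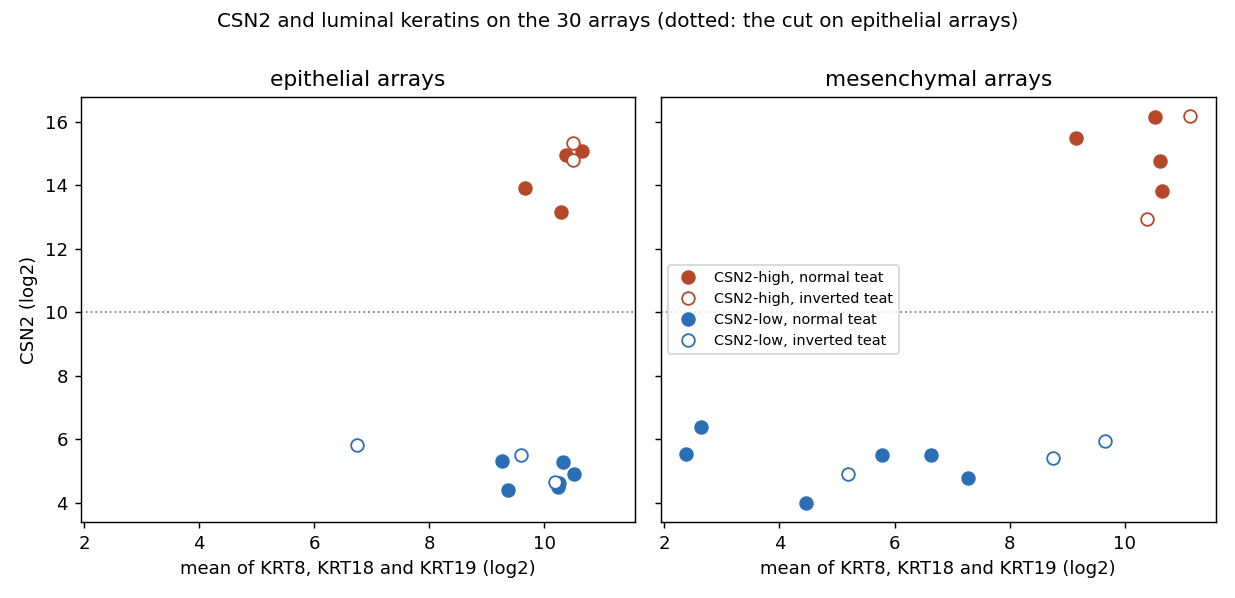
CSN2 against the mean of the luminal keratins KRT8, KRT18 and KRT19 (both log2) on the 15 epithelial (left) and 15 mesenchymal arrays (right), with the states by colour and the teats by fill; the dotted line is the cut at 10. On CSN2-low arrays the keratin mean runs from 2.38 to 10.5 with CSN2 at 6.39 or less, and every CSN2-high array has a keratin mean of 9.15 or more.

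Over all 18212 probe sets tested in mesenchyme 1300 were higher (7.14%) and 206 lower (1.13%) in CSN2-high animals by limma at an adjusted p under 0.05. The count of 1506 was 835 without animal 950, 766 without 963, 261 without 964, 674 without 1037 and 687 without 1103. Array medians in mesenchyme were 5.89 to 6.04 in CSN2-high and 5.71 to 5.85 in CSN2-low animals (exact permutation test, p = 0.00476), and the median probe set differed by 0.0958. After quantile normalization 713 were higher and 406 lower, and the median was -0.0413. With the animal as a replicate block 2562 passed, and with the keratin mean as a covariate 1. Both the share of luminal transcript and the array level moved with the state here, and their part in these counts cannot be told apart from the state. In epithelium the array medians did not differ beyond the spread (5.76 to 5.88 and 5.76 to 5.87, exact permutation test, p = 0.595).

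The genes that parted the animals in epithelium were partly the same in mesenchyme. Besides CSN2, 34 symbols were higher in all 4 CSN2-high animals in epithelium, and 15 of these 34 passed higher in mesenchyme, beside 330 of 6161 symbols. The 34 were picked on the sorted arrays and read in the same animals, whose mesenchymal luminal transcript moved with the state. With the keratin mean as a covariate only CSN2 was called in mesenchyme. The overlap is therefore a description. Of the genes named above on the higher side, CD93 (2.04 ± 0.41), SKAP2 (0.96 ± 0.20), RNF128 (3.03 ± 0.65), LOC396566 (2.47 ± 0.44) and PDXK (0.83 ± 0.21, SE) rose. Each of these 5 calls ended without animal 964, that of RNF128 also without 950, and that of PDXK also without 957, 963, 1040, 1058, 1059 or 1103. The further CD93 probe set gave -1.17, and those of SKAP2 gave 0.77 and 0.72 (limma, adjusted p = 0.02955 and 0.08788). Of the 26 symbols that were lower in epithelium 25 were tested and 2 passed lower, PHLDA3 at -1.0 ± 0.24 and OAF at -0.85 ± 0.19 (SE; limma, adjusted p = 0.0286 and 0.0238), beside 85 of 6161. PHLDA3 missed the threshold without 950, 963, 964, 1037 or 1103, and OAF without 950, 964, 1037 or 1103. JCHAIN in mesenchymal tissue was the only neighbour of the caseins to pass (1.85 ± 0.38, SE, limma, adjusted p = 0.0174). It missed the threshold without 964 (limma, adjusted p = 0.0533). Beside 330 higher and 85 lower of all 6161 symbols, nothing is read from this count.

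Whether a difference between the states was larger in one tissue was tested on epithelial minus mesenchymal values within each animal. Of 19055 probe sets 426 passed (2.24%), 23 higher and 403 lower. The median probe set differed by -0.117, and the mesenchymal array medians moved with the state. After quantile normalization the median was 0.0048, and 8 passed higher and 50 lower. The part of the array level in the lower calls was not tested. The epithelial arrays on which the states were cut enter this comparison of tissues. For the milk genes, whose epithelial values served or followed the cut, the tissue differences are therefore given with no test: 0.09 ± 0.59 for CSN2, -1.21 ± 0.89 for CSN1S1, -0.27 ± 0.71 for CSN3, -0.94 ± 1.08 for PAEP, -1.47 ± 0.65 for CSN1S2 and -1.29 ± 0.49 for WAP (SE). KRT8 and KRT18 passed with -3.48 ± 0.53 and -4.12 ± 0.76 (SE; limma, adjusted p = 0.0191 and 0.0300), and KRT19 missed the threshold with -4.29 ± 1.05 (adjusted p = 0.0547). The KRT8 call ended without 957, 963 or 964 and the KRT18 call also without 950. After quantile normalization KRT18 missed the threshold as well (limma, adjusted p = 0.0504), while KRT8 passed (0.0343). The 3 smallest p with a symbol belonged to PLK2, a kinase (-2.02), HMGN1, a nucleosome-binding protein (-1.02), and POSTN, periostin of the matrix (-1.87). All 3 calls ended without 964, and those of HMGN1 and POSTN also without 957 or 963. The count of 426 was 1 without 957 or 964, 12 without 963 and 42 without 950, and lay between 169 and 202 without 1040, 1058, 1059 or 1109 and at 665 without 1037.

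The teats of an animal shared its state, and in epithelium its caseins and PAEP differed between them by 2.17 at most. In epithelium the inverted minus normal difference of CSN2 was -0.26 in 963 and 2.17 in 964, that of CSN1S1 was -0.21 and 1.73 and that of CSN3 -0.55 and 1.74. PAEP followed with -0.48 and 0.72. SLC34A2 was higher in the inverted teat of 4 of the 5 affected animals, by 1.91 in 964, 3.73 in 1037, 1.85 in 1059 and 3.01 in 1103, against -0.46 in 963, with its low values near the bottom of the scale. Whether the teat difference differs between the states was tested on 2 against 3 animals, and 0 of 17994 probe sets passed (0%, limma; 379 at an unadjusted p under 0.05). The difference of affected and non-affected animals likewise passed for 0 probe sets between the states (0%, limma; 385 unadjusted), but for 16 without animal 963 and for 1 without 950.

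The state did not follow the affection label. Affected were 2 of 4 CSN2-high and 3 of 6 CSN2-low animals (Fisher's exact test, two-sided, p = 1). German Landrace were 2 of 4 CSN2-high and 0 of 6 CSN2-low animals (Fisher's exact test, p = 0.133, adjusted over 4 labels 0.532), and Pietrain crosses 0 of 4 and 2 of 6 (exact p = 0.467, adjusted 0.934). Within the Large White x German Landrace animals, 2 against 4, the epithelial differences were 9.13 for CSN2, 5.81 for CSN1S1, 6.55 for CSN3, 4.65 for PAEP and 2.59 for SLC34A2. The CSN2-high animals carry the 4 lowest animal numbers, 950 to 964, and the CSN2-low animals 1037 to 1109. What the numbers stand for is not given in the labels used here, so the state and anything tied to them, such as a slaughter date, cannot be told apart.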

How the data were processed

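The authors deposited log2 values of 24123 probe sets on 30 arrays; the base of the log was inferred from the range. The submitters' processing notes list GCOS 1.1.1 and PLIER. Array medians lay between 5.71 and 6.04, and 358 to 754 values per array are 0. The values were used as deposited, and the number of arrays limits the precision. Both the members and the gene lists were chosen with earlier results of these data known.

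The arrays of an animal were averaged (5 animals with 2 teats). Their pairing comes from the animal numbers: after removal of group means, both teats correlated with r from 0.26 to 0.57 in epithelium and from 0.13 to 0.69 in mesenchyme, in 5 pairs each. States were compared with limma 3.58.1 in R 4.3.3 (lmFit, eBayes, two-sided, Benjamini-Hochberg over all probe sets tested, threshold 0.05). A probe set was tested where it exceeded its array's 30th percentile on at least 4 of 15 arrays; 124 control probe sets were left out. The fits were tested on simulated data. Errors are SD over animals for levels and SE from the fit for differences.

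Symbols came from the platform table: 10099 probe sets have 1 symbol, 198 several and 13826 none, and 9989 of those with 1 symbol were found in RefSeq by Entrez ID. Each gene was read from whichever of its probe sets had the highest mean on the 30 arrays. Named genes are all measured milk list members, the 10 highest and 10 lowest epithelial genes by smallest p, up to 3 passing members per direction of every other list, the 3 smallest p of the other tests, and the casein neighbours. Not every gene that these rules name is given in the text. List members given beyond these are examples picked with their values known. Alternatives were quantile normalization, other filters, a replicate block, normal teats alone, covariates, 1 breed, single arrays or animals left out, an unmoderated fit, averaged probe sets, and low values raised to the 30th percentile; the last was added after seeing the data, as were leaving out 2 mesenchymal arrays and the alternatives for members of lists other than the milk list. No sequence or coordinate is given, since no genome was used here.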

Additional observations from a re-analysis of the deposited data

Results flagged for a closer look

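In epithelium 4 animals lay far from the others of their state for 6 named genes in all, among 82 gene, tissue and state groups examined with a rule that chance meets in about 1 of 20 groups. LALBA was 4.49 in animal 1109, against 4.79 to 4.93 in the other CSN2-low animals. LTF was 8.24 in 963, against 9.32 to 9.5 in the other CSN2-high animals. ALB was 6.81 in 1103 (9.33 in its inverted and 4.29 in its normal teat), against 1.71 to 3.29 in the other CSN2-low animals. LOC396566 was 7.12 in 950, against 7.87 to 7.99, and PHF12 was 4.81 in 950, against 4.61 to 4.62. HOXB7 was 6.17 in 963, against 6.42 to 6.44 in the other CSN2-high animals.

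The difference between the states differed between tissues for PLK2 (-2.02), HMGN1 (-1.02) and POSTN (-1.87 log2, epithelial minus mesenchymal difference of CSN2-high minus CSN2-low), by limma on the difference within animals with adjusted p of 0.0144, 0.0155 and 0.0155. Epithelial arrays, on which the states were cut, enter this test, which limits what the p values can show. All 3 calls ended without 964, and those of HMGN1 and POSTN also without 957 or 963.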

How the results depend on the processing

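In epithelium the count of 2 was 1 with no filter on low values, with the unmoderated ANOVA, with affection status or with the keratin mean as a covariate, 4 with the animal as a replicate block, and 1 to 4 with single animals left out; the cause was not tested. In mesenchyme the count of 1506 was 862 with no filter, 2562 with the replicate block, 785 in normal teats alone, 994 with the unmoderated ANOVA, 1 with the keratin mean, 21 in Large White x German Landrace animals (fewer animals), and 261 to 1598 with single animals left out. The tissue difference count of 426 was 58 after quantile normalization, 60 with no filter, 960 with a 50th percentile filter, 181 in normal teats, 1 (CSN1S2) in Large White x German Landrace animals, and 1 to 665 with single animals left out; the status difference gave 0 to 16 and the teat difference 0 in each. Mesenchymal values that changed sign were MUC1 (-0.14) and LOC100515394 (-0.13) after quantile normalization; RUFY3 with the replicate block (0.07), in normal teats (0.06, with MACF1 at 0.03), without the inverted teats of 1103 (0.01) or of 1059 and 1103 (0.05, with LOC100515394 at -0.02); LTF (-1.48), PLIN2 (-0.04), TF (-0.76), LOC100515394 (-0.30), AMBN (-0.11) and RUFY3 (0.44) with the keratin mean; and TF (-0.33), MACF1 (0.04), LOC100515394 (-0.04) and RUFY3 (0.21) in Large White x German Landrace animals. With single animals left out MFGE8 ran from -0.32 to 0.14, LOC100515394 from -0.04 to 0.15, RUFY3 from -0.18 to 0.21, MACF1 from -0.16 to 0.04, LALBA from -0.01 to 0.39 and MUC1 from -0.10 to 0.13. Differences against values under the 30th percentile have uncertain sizes.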
